A study of Nicotiana tabacum with 36 samples.

Results

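In tobacco (*Nicotiana tabacum*, cv. K326), 139 of 69500 predicted gene models had a transcript level that was highest at ZT12 in both aerial tissues by the rule given here, and they are called the members. ZT counts hours from the start of the light period. The members were chosen from TPM, a transcript level scaled within each library by its depth and by the length of the gene model. For each tissue and time-point the median of 3 replicates was taken in Shoot and in ShootApex. A gene model was eligible when its highest median was at least 5 TPM in both tissues and when its medians over all 12 libraries of each tissue, with 0.1 added, lay within 4-fold of each other, which 25133 gene models met. The score of a gene model was the smaller of the 2 tissues' values of log2((median at ZT12 + 1)/(highest other median + 1)), and a score of at least the log2 of 1.5 was required. The limit of 150 members was not reached. Applied to the other time-points, the same rule passed 261 gene models at ZT0, 226 at ZT6 and 29 at ZT18.

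RNA was sequenced from shoot, shoot apex and root of K326 plants 56 days old grown under long days of 18 h light and 6 h dark. Plants were sampled every 6 h from ZT0 to ZT18, so that ZT12 lay within the light period and ZT18 at its end. Each of the 12 combinations of tissue and time-point had 3 libraries labelled as replicates, 36 in all. No plant was mutated or treated, and the groups differed only in tissue and time.

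Daily rhythms of plant transcripts are set by the circadian clock and by light and dark themselves. In *Arabidopsis thaliana* the clock is a loop of genes, many of them for repressors, that follow one another through the day. *CCA1* and *LHY* act near dawn, *PRR* genes and *GI* during the day, and *TOC1* near dusk. Many transcripts for photosynthesis, growth and metabolism are timed by this loop in leaves, and in *Arabidopsis* the clock of roots is known to differ in part from that of shoots. The deposited gene models carry no gene names, and 0 of their identifiers were listed in the RefSeq table at hand, so no member can be tied to a named gene or to a role here. Members are therefore given by identifier for a few and by rank of score, counts and ranges for the rest.

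Library totals lay between 4125090 and 21265992 expected counts. The tissue labels could not be checked by marker genes, but the most similar library came from the same tissue for 36 of 36 libraries, and from the same tissue and time-point for 14. The study's quality table lists 5 libraries with the lowest shares of mapped reads, which are Shoot ZT6 replicate 1, Shoot ZT18 replicate 2, Root ZT6 replicates 1 and 2 and Root ZT18 replicate 2. In the deposited files 4 of them held fewer expected counts than any library not listed (lowest 10608197). Root ZT18 replicate 2 held 13332241, more than the mapped reads listed for it, so its entry in that table does not match the deposited library and its low mapping is in doubt. Wherever the 5 libraries, or the 4, are left out below, Root ZT6 keeps replicate 3 alone. In the 2 of Shoot, the 10 gene models with the most counts took 36.6% and 12.2% of all counts, and both stood apart from their replicates. Without these 2 libraries, 88 of the 139 members still passed the rule, so 51 members rest on them. Libraries also fell into 13 whose counts lay on longer gene models and 23 whose counts lay on shorter ones, a division that cuts across tissues and time-points.

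In Shoot, the median level over the 139 members was 4.62 TPM at ZT0, 11.6 TPM at ZT6, 35.7 TPM at ZT12 and 9.96 TPM at ZT18. In ShootApex it was 4.69 TPM at ZT0, 9.23 TPM at ZT6, 30.3 TPM at ZT12 and 11.03 TPM at ZT18. These values chose the members and are given as a description without a test. Without the 2 Shoot libraries of low mapping, the Shoot medians were 13.6 TPM at ZT6 and 10.7 TPM at ZT18, and all 139 members were higher at ZT12 than at ZT0 and at ZT18 and 137 were higher than at ZT6. From its lowest to its highest time-point, the median member spanned 4.99-fold in Shoot and 4.85-fold in ShootApex (medians + 1 TPM). In such bulk samples, fewer cells of a type and less RNA per cell cannot be told apart.

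**Figure D1:**
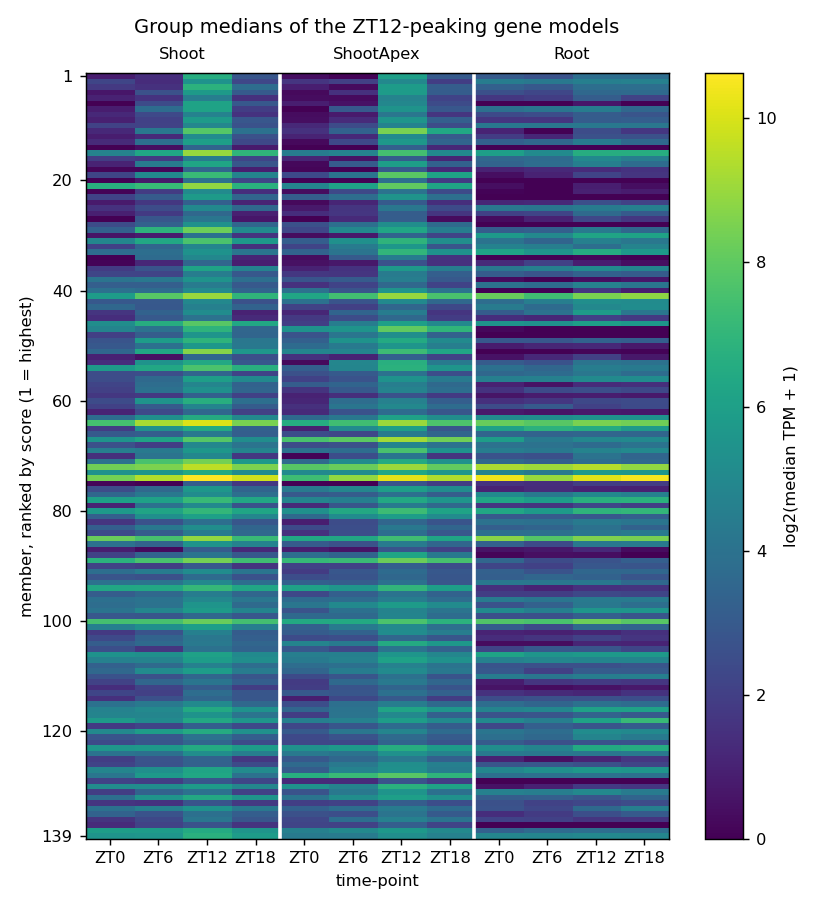
Group medians of the 139 members as log2(median TPM + 1), with members in rows by rank of score and the 4 time-points of each tissue in columns. The ZT12 columns of Shoot and ShootApex are brightest within each tissue by the choice of the members, while the Root columns differ less between time-points and are near 0 for 18 members.

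Scores ran from 0.586 to 3.02 (8.14-fold), with a median of 0.82 (1.77-fold). There were 49 members with a score of at least 1 (2-fold), 15 with at least 2 (4-fold) and 1 with at least 3 (8-fold). The smaller value came from ShootApex in 79 members and from Shoot in 60. At the threshold, the member of lowest score was Nitab4.5_0001388g0020.1 (0.5859), and the first eligible gene model outside was Nitab4.5_0000099g0200.1 (0.5845).

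Summed over the members, TPM made up 1.29 to 1.39% of each Shoot library at ZT12. In the other Shoot libraries the share was 0.202 to 0.341% at ZT0, 0.0588 to 0.923% at ZT6 and 0.180 to 0.530% at ZT18, where both lowest values belong to the libraries of low mapping. In ShootApex the share was 0.888 to 1.09% at ZT12, against 0.199 to 0.231% at ZT0, 0.331 to 0.469% at ZT6 and 0.384 to 0.605% at ZT18. The ZT12 libraries lay above all other libraries of their tissue in both aerial tissues. In Root the share was 0.371 to 0.524% at ZT0, 0.328 to 0.381% at ZT6, 0.424 to 0.588% at ZT12 and 0.384 to 0.589% at ZT18, so that the ZT12 and ZT18 libraries overlapped. The lowest Root value at ZT12 (replicate 3) and at ZT18 (replicate 1) came from the only library of that group with counts on longer gene models.

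**Figure D2:**
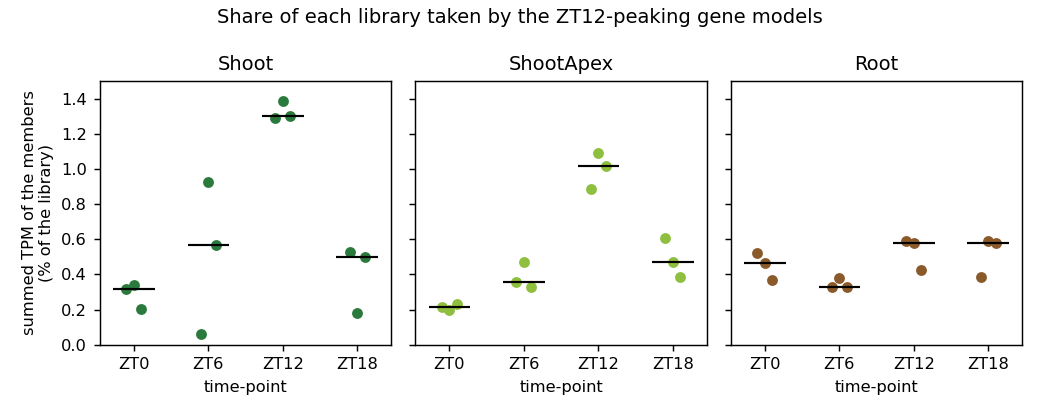
Summed TPM of the 139 members as a percent of each library, by tissue and time-point, with 1 point per library and a line at the median of 3. ZT12 stands above every other library in Shoot (1.29 to 1.39%) and ShootApex (0.888 to 1.09%), and overlaps ZT18 in Root (0.424 to 0.588% at ZT12).

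The second highest time-point, the shoulder of the peak, is a description of the values that chose the members. In Shoot the second highest median was at ZT6 in 72 members, at ZT18 in 56 and at ZT0 in 11, and without the 2 libraries of low mapping at ZT6 in 90, at ZT18 in 46 and at ZT0 in 3. In ShootApex it was at ZT18 in 96, at ZT6 in 38 and at ZT0 in 5. Both tissues had the same second time-point in 78 members, 48 of them at ZT18, 29 at ZT6 and 1 at ZT0. The lowest median was at ZT0 in 92 members in Shoot, in 110 in ShootApex and in 83 in both.

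All 3 ZT12 libraries lay above the 9 others in 92 members in Shoot, against 2.49% of eligible gene models, in 82 members in ShootApex, against 1.51%, and in 68 members in both. The choice of the members favours such a separation, and no share of eligible gene models is given for both tissues together. The spread between replicates, as the median over members of the SD of log2(TPM + 1) with n = 3, was 0.38 in Shoot and 0.39 in ShootApex at ZT12, and 1.60 in Shoot at ZT6, where replicate 1 had low mapping. At ZT12 the level was higher in Shoot than in ShootApex in 96 members, with a median log2 ratio of 0.31 and quartiles of -0.15 and 0.73.

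The member of highest score was Nitab4.5_0003250g0020.1 (1257 bases, score 3.02). In Shoot it had 0.79, 1.54 and 0.44 TPM at ZT0, 0.18, 1.60 and 1.78 TPM at ZT6, 116, 98.3 and 85.1 TPM at ZT12 and 7.79, 2.31 and 6.18 TPM at ZT18. In ShootApex it had 0.68, 0.33 and 0.13 TPM at ZT0, 0.06, 0 and 0.25 TPM at ZT6, 80.5, 63.8 and 50.2 TPM at ZT12 and 7.57, 6.04 and 6.97 TPM at ZT18. The ZT12 libraries did not overlap any other in either tissue, and ZT18 stood above ZT0 and ZT6. In Root it had 7.26, 9.83 and 6.73 TPM at ZT0, 4.82, 5.63 and 6.90 TPM at ZT6, 12.5, 16.9 and 13.4 TPM at ZT12 and 12.8, 13.0 and 13.5 TPM at ZT18. Root libraries at ZT12 and ZT18 overlapped and both lay above those at ZT0 and ZT6. The Root log2 fold change of ZT12 against the mean of the other time-points was 0.76 (SE 0.34, edgeR adjusted p = 1.00), so it did not pass the test.

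Next in score was Nitab4.5_0005900g0090.1 (1725 bases, score 2.93). In Shoot it had 2.41, 3.61 and 4.32 TPM at ZT0, 0.10, 1.53 and 2.83 TPM at ZT6, 70.4, 35.04 and 42.1 TPM at ZT12 and 3.26, 3.77 and 5.43 TPM at ZT18. In ShootApex it had 2.15, 2.69 and 1.56 TPM at ZT0, 3.05, 2.09 and 4.12 TPM at ZT6, 51.7, 29.8 and 26.5 TPM at ZT12 and 2.80, 1.63 and 5.28 TPM at ZT18. In Root it had 15.2, 21.4 and 23.99 TPM at ZT0, 16.4, 18.2 and 20.7 TPM at ZT6, 22.8, 22.4 and 34.5 TPM at ZT12 and 33.3, 20.4 and 24.2 TPM at ZT18. The aerial ZT12 libraries stood apart from all others, while the Root time-points overlapped, with a Root log2 fold change of 0.32 (SE 0.22, edgeR adjusted p = 1.00).

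A pair of members that follow each other directly on one scaffold, Nitab4.5_0000640g0140.1 (627 bases, rank 13) and Nitab4.5_0000640g0150.1 (315 bases, rank 7), had similar profiles. In Shoot, Nitab4.5_0000640g0140.1 had 1.38, 2.61 and 0.81 TPM at ZT0, 1.92, 13.7 and 15.5 TPM at ZT6, 91.0, 62.3 and 57.3 TPM at ZT12 and 4.76, 3.58 and 3.98 TPM at ZT18. In ShootApex it had 0.17, 0.41 and 0.22 TPM at ZT0, 4.98, 4.14 and 3.25 TPM at ZT6, 69.6, 49.3 and 50.03 TPM at ZT12 and 11.1, 9.62 and 7.09 TPM at ZT18. In Root it had 8.54, 14.0 and 7.91 TPM at ZT0, 11.5, 10.9 and 9.07 TPM at ZT6, 18.98, 21.2 and 25.4 TPM at ZT12 and 15.7, 10.1 and 11.2 TPM at ZT18. Its ZT12 libraries lay above the 9 others in all 3 tissues, with a Root log2 fold change of 1.00 (SE 0.24, edgeR adjusted p = 0.41). For Nitab4.5_0000640g0150.1 the Root libraries held 2.18, 16.04 and 14.1 TPM at ZT0, 18.2, 16.6 and 15.4 TPM at ZT6, 19.2, 20.9 and 36.1 TPM at ZT12 and 23.1, 4.94 and 10.6 TPM at ZT18, which overlapped. Its levels at ZT12 were 177, 52.8 and 68.8 TPM in Shoot and 98.1, 43.7 and 35.9 TPM in ShootApex. Whether reads were shared between the neighbours was not tested.

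**Figure D3:**
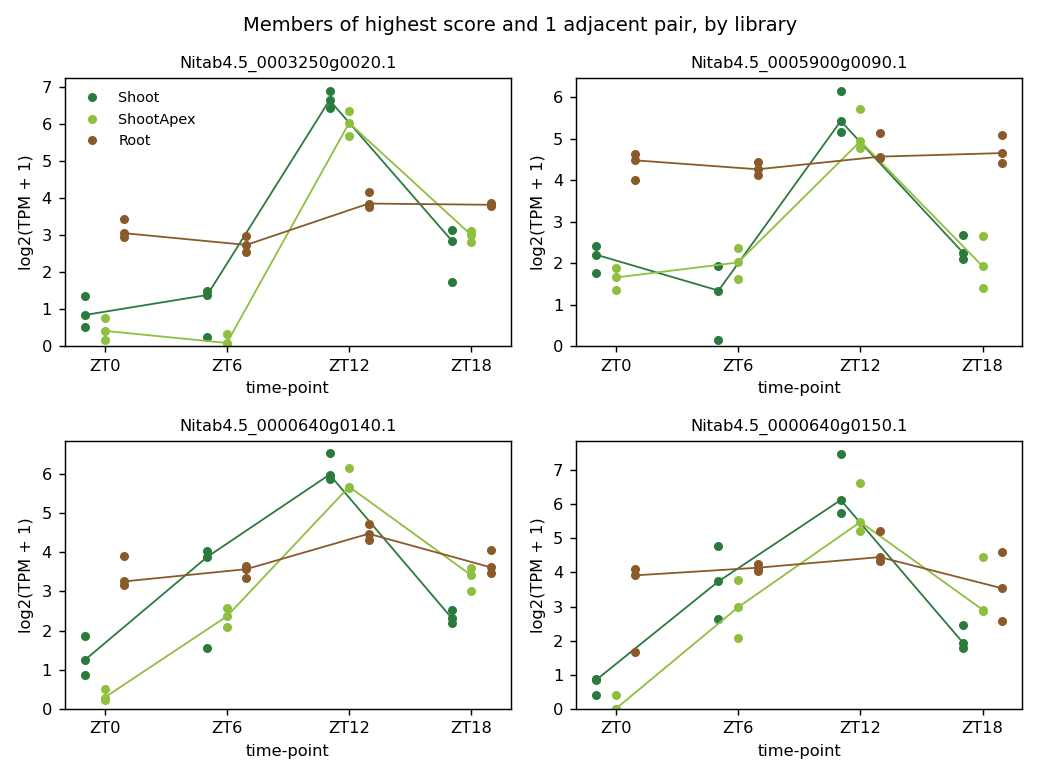
Level of the 2 members of highest score and of 1 adjacent pair as log2(TPM + 1) by time-point, with 1 point per library and lines through the medians of Shoot, ShootApex and Root. The aerial lines peak at ZT12 in each panel, and the Root points at ZT12 stand clear of the other Root points in Nitab4.5_0000640g0140.1 among these 4.

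A second adjacent pair, Nitab4.5_0000089g0030.1 (723 bases, rank 23) and Nitab4.5_0000089g0040.1 (687 bases, rank 48), was found in aerial tissues and hardly at all in Root. Nitab4.5_0000089g0030.1 had 110, 43.4 and 54.9 TPM at ZT12 in Shoot and 54.6, 44.1 and 25.7 TPM at ZT12 in ShootApex. Nitab4.5_0000089g0040.1 had 147, 40.7 and 43.8 TPM at ZT12 in Shoot and 65.3, 36.8 and 15.6 TPM at ZT12 in ShootApex. In Root each was listed at 0 in 11 of 12 libraries, with 0.14 TPM in 1 ZT0 library and 0.28 TPM in 1 ZT6 library, and no fold change is given there. In both members, ShootApex ZT12 replicate 3 lay below or close to the highest library of another time-point, so the apex groups were not cleanly separated for Nitab4.5_0000089g0040.1.

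The most abundant members were Nitab4.5_0013685g0010.1 (471 bases, rank 74) and Nitab4.5_0002880g0020.1 (934 bases, rank 72). At ZT12 Nitab4.5_0013685g0010.1 stood above every other time-point in ShootApex alone and Nitab4.5_0002880g0020.1 in Shoot alone, and their ZT12 levels overlapped other time-points in the remaining tissues. Nitab4.5_0013685g0010.1 had 929.7, 1585 and 1632 TPM at ZT12 in Shoot, where ZT6 held 81.6, 1569 and 682 TPM, and 1030.3, 1183 and 1442 TPM at ZT12 in ShootApex, where ZT18 held 936, 656 and 371 TPM. In Root it had 1302, 1331 and 638 TPM at ZT0, 502, 750.4 and 462 TPM at ZT6, 1126, 1096 and 713 TPM at ZT12 and 525, 1507 and 1445 TPM at ZT18, with no separation of ZT12. Nitab4.5_0002880g0020.1 had 760.0, 776 and 492 TPM at ZT12 in Shoot, 515, 517 and 411 TPM at ZT12 in ShootApex and 689, 725 and 504 TPM at ZT12 in Root, where its lowest and highest libraries at the other time-points were 466 and 753 TPM.

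In Root, which took no part in the choice of the members, the median level over members was 7.26 TPM at ZT0, 6.4 TPM at ZT6, 10.6 TPM at ZT12 and 9.86 TPM at ZT18. The median member spanned 1.69-fold between its lowest and highest Root time-point. At least 5 TPM in some Root median was reached by 94 members, 27 reached 1 to 5 TPM and 18 stayed under 1 TPM. At ZT12 the Root median was below both aerial medians in 112 members and above both in 13. At ZT0 it was above both in 68 members and below both in 48, and 44 members were above both at ZT0 and below both at ZT12. The aerial medians in these comparisons chose the members, which were all higher at ZT12 than at ZT0 in aerial tissues. A level Root profile could therefore cross them, and the counts are a description without a share over all gene models.

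Among the 94 members that reached 5 TPM in Root, the highest Root median was at ZT12 in 46 (48.9%), where 23.9% of all gene models with that level peaked. The peak fell at ZT18 in 28 (29.8%, against 25% of all), at ZT0 in 12 (12.8%, against 20.4% of all) and at ZT6 in 8 (8.51%, against 30.7% of all). Of the members that still passed the rule without the 2 Shoot libraries of low mapping, 29 of 56 peaked at ZT12 in Root (51.8%). The score threshold itself was met in Root by 6 of the 94 (6.38%), against 1.11% of all gene models with that level. Without the 5 libraries listed with low mapping, 3 of them from Root and Root ZT18 replicate 2 among these, the ZT12 peak was found in 51 of 95 members (53.7%, against 28.5% of all). With Root ZT18 replicate 2 kept and the other 4 left out, it was found in 46 of 94 (48.9%, against 21.9% of all). In both settings the Root ZT6 value was that of replicate 3 alone, a library with counts on longer gene models. No test was made of these shares.

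**Figure D4:**
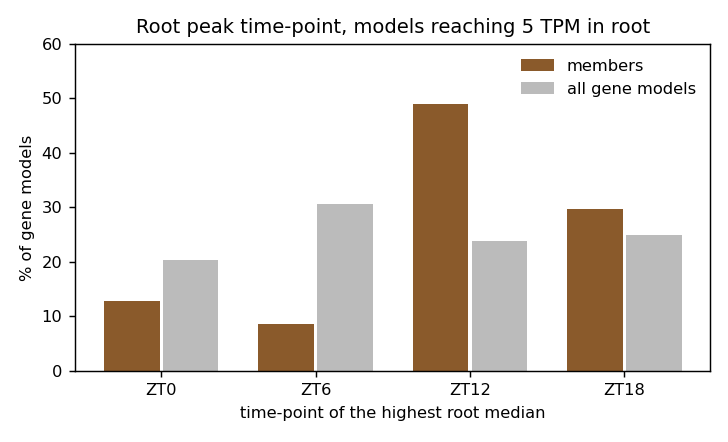
Percent of gene models whose highest Root median fell at each time-point, for the 94 members and for all gene models that reached 5 TPM in Root. Members peak at ZT12 in 48.9%, against 23.9% of all gene models, and at ZT6 in 8.51%, against 30.7%.

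The Root peaks are given by the shoulder in aerial tissues, a grouping that comes from the values that chose the members, and differences between these groups were not tested. Of 21 members with 5 TPM in Root that were second at ZT6 in both aerial tissues, 17 peaked at ZT12 in Root and 3 at ZT18. Of 34 members second at ZT18 in both, 12 peaked at ZT12 in Root and 15 at ZT18. Without the 2 Shoot libraries of low mapping these counts were 18 and 5 of 26, and 10 and 10 of 28. Among members with a score of at least 1, 21 of 30 peaked at ZT12 in Root, and among those with a lower score 25 of 64 did.

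In the edgeR quasi-likelihood test over 44594 gene models, 0 of the 139 members were called at an adjusted p of 0.05 for ZT12 against the mean of ZT0, ZT6 and ZT18 in Root, where 0.00224% of all gene models were called higher and 0% lower. Against single time-points 0 members were called either way by edgeR as well. Of all gene models, 0.00448% were called higher and 0% lower against ZT0, 0.00448% higher and 0.0112% lower against ZT6, and 0.00448% higher and 0% lower against ZT18. Calls were thus rare over the whole table. At an unadjusted p under 0.05, 37 members (26.6%) were higher at ZT12 than the mean of the other time-points, against 3.1% of all gene models, and 1 was lower, against 0.901%. Against ZT0, 32 members were higher (23.0%, against 2.9% of all) and 2 lower (against 1.49%). Against ZT6, 51 were higher (36.7%, against 7.81% of all) and 0 lower (against 3.28%), and against ZT18 8 were higher (5.76%, against 1.07% of all) and 1 lower (against 0.536%). Root ZT6 replicates 1 and 2 were libraries of few counts, and members share all Root libraries. Counted either way, members at that p varied between alternative fits that kept at least 2 libraries per group. They numbered 12 to 43 against the mean (38 in the main fit) and 12 to 38 against ZT0 (34). Against ZT6 they numbered 20 to 55 (51) and against ZT18 0 to 11 (9). No share over all gene models is given for these fits. DESeq2 called 2 members higher against the mean (0.0112% of all), 4 against ZT0 (0.0673% of all), 3 against ZT6 (0.0852% of all) and 0 against ZT18 (0.0292% of all), and limma on log2(TPM + 1) called 0 against the mean (0.0426% of all), 0 against ZT0 (0.0426% of all), 1 against ZT6 (0.211% of all) and 0 against ZT18 (0.0202% of all). Those against ZT0 were Nitab4.5_0000321g0280.1, Nitab4.5_0006169g0040.1, Nitab4.5_0007793g0050.1 and Nitab4.5_0008239g0010.1. Those against ZT6 were Nitab4.5_0000321g0280.1, Nitab4.5_0003250g0020.1 and Nitab4.5_0008239g0010.1 by DESeq2 and Nitab4.5_0000517g0040.1 by limma, all named after their values had been seen.

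The median Root log2 fold change over the members was 0.47 for ZT12 against the mean of the other time-points, where the median over all gene models was 0.05, and 116 of 139 members were above 0, as were 57.1% of all gene models. The same contrast, as a description, had a median of 1.61 in Shoot and 1.55 in ShootApex. Against single time-points in Root, the members' median was 0.47 for ZT0 (all gene models 0.02), 0.74 for ZT6 (all 0.09) and 0.11 for ZT18 (all 0.01). Without the 5 libraries listed with low mapping, the median over members against the mean of the other time-points was 0.48 (all gene models 0.02), and with Root ZT18 replicate 2 kept it was 0.48 (all 0.06). In both settings Root ZT6 rests on replicate 3 alone. The median SE of a member with at least 10 counts in at least 3 Root libraries was 0.34 for the first contrast. Over those 123 members, which include none of the 13 with a Root time-point at 0, the medians were 0.46 against the mean, 0.44 against ZT0, 0.71 against ZT6 and 0.11 against ZT18.

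Across the 123 members, the mean aerial log2 fold change and the Root log2 fold change had a Pearson r of 0.38 and a Spearman rho of 0.34, given as a description, since members share libraries and are not independent.

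**Figure D5:**
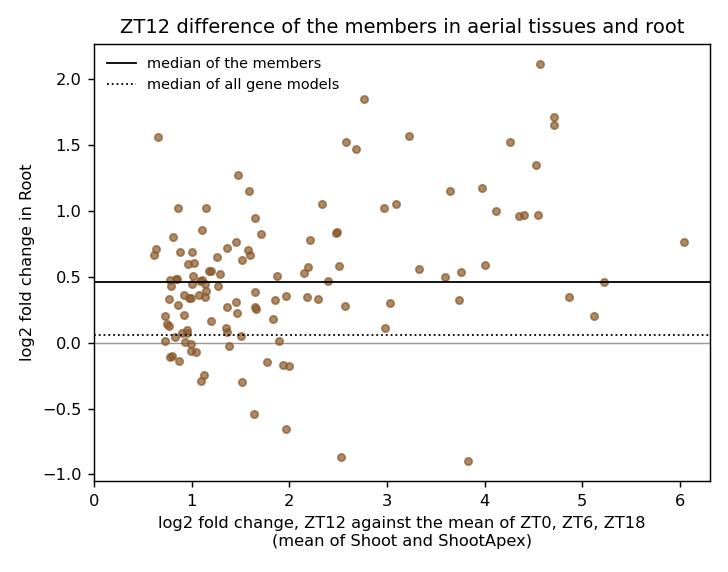
Root log2 fold change of ZT12 against the mean of ZT0, ZT6 and ZT18, by the mean of the same value in Shoot and ShootApex, for the 123 members with enough Root counts, with 1 point per member. The solid line is the median of these members (0.46) and the dotted line that of all gene models with enough Root counts (0.05). Above 0 lie 106 of the 123 points, as do 57.6% of all gene models with enough Root counts.

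The length of gene models moved with these values. Members were shorter than eligible gene models, with a median of 939 bases against 1203, and 21.6% were under 500 bases against 8.77%. Root libraries with counts on longer gene models were 2 of 3 at ZT0 and at ZT6 but 1 of 3 at ZT12 and at ZT18. Among gene models under 1000 bases the median Root log2 fold change of the first contrast was 0.57 over 75 members and 0.19 over all tested, and among longer ones it was 0.33 over 64 members and -0.01 over all tested. The share peaking at ZT12 in Root was 47.1% of members and 33.6% of all under 1000 bases, and 51.2% of members and 17.8% of all at 1000 bases or more, among those with 5 TPM in Root. Within the Root libraries of longer gene models the members' median of mean log2(TPM + 1) at ZT12 minus that of the other time-points was 0.18, and within the others it was 0.40. The first value rests on 1 ZT12 library and the second on 1 library each at ZT0 and ZT6. Neither has a value over all gene models beside it. With the length measure as a term in the fit the median log2 fold change was 0.46.

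All 3 ZT12 libraries lay above the 9 others in Root in 7 members, 6 of them among the 94 with 5 TPM (against 0.354% of all gene models with that level). The following members were named after their Root values had been seen. Nitab4.5_0000287g0270.1 (693 bases, rank 5) had 2.28, 3.45 and 2.31 TPM at ZT0, 0.84, 3.06 and 2.86 TPM at ZT6, 5.09, 8.06 and 7.67 TPM at ZT12 and 3.59, 3.23 and 2.88 TPM at ZT18 in Root. Its log2 fold change against the mean was 1.35 (SE 0.33, edgeR adjusted p = 0.41). By DESeq2, which was run as an alternative, it was called (log2 fold change 1.30, SE 0.28, adjusted p = 0.023), as was Nitab4.5_0008239g0010.1 (1.81, SE 0.39, adjusted p = 0.027).

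Nitab4.5_0008239g0010.1 (1584 bases, rank 24) had 0.99, 1.84 and 1.22 TPM at ZT0, 0.68, 1.31 and 2.80 TPM at ZT6, 4.47, 4.86 and 12.0 TPM at ZT12 and 1.93, 4.34 and 3.28 TPM at ZT18 in Root, so that ZT12 stood above every other library. In edgeR its log2 fold change against the mean was 1.85 (SE 0.36, adjusted p = 0.20). It was 1 of 2 members called in the edgeR test of any difference between the 4 Root time-points, which has 3 degrees of freedom (adjusted p = 0.046), against 0.195% of all gene models. The other was Nitab4.5_0006169g0040.1 (1599 bases, rank 111), with 0.73, 0.71 and 1.33 TPM at ZT0, 3.02, 1.65 and 2.16 TPM at ZT6, 2.45, 3.25 and 2.39 TPM at ZT12 and 1.79, 2.25 and 2.37 TPM at ZT18 in Root (adjusted p = 0.041). Its ZT0 libraries lay below all others and ZT12 overlapped ZT6. Both calls were lost without the 5 libraries listed with low mapping, also with Root ZT18 replicate 2 kept, and when Root libraries were fitted alone. Calls over all gene models fell as well, from 87 to 15, 36 and 9 in these settings. With 1 Root library left out, both held without ZT18 replicate 1, and at least 1 of them was lost without each of the other 11.

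In Root 9 members had their lowest median at ZT12, and in 1 of them all 3 ZT12 libraries lay below the 9 others. Nitab4.5_0000107g0120.1 (477 bases, rank 32) had 25.5, 15.1 and 25.4 TPM at ZT0, 19.5, 22.2 and 24.7 TPM at ZT6, 13.3, 14.9 and 10.4 TPM at ZT12 and 30.5, 25.8 and 26.0 TPM at ZT18, so that ZT12 lay below all other Root libraries, as in 0.0721% of all gene models with 5 TPM. At ZT12 it had 43.1, 22.3 and 27.9 TPM in Shoot and 48.5, 55.9 and 31.6 TPM in ShootApex, above every other library of these tissues, the highest of which held 17.2 TPM in Shoot and 30.6 TPM in ShootApex. Its Root log2 fold change was -0.87 (SE 0.37, edgeR adjusted p = 1.00) and did not pass the test.

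The 139 members lay on 134 scaffolds, by the numbers in their identifiers. A scaffold held at most 2 members, 5 scaffolds held 2, and 3 pairs followed each other directly. Coding or transcript sequences of the members were not used here.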

How the data were processed

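Trimmed single reads were aligned by the authors to predicted gene models with Nitab4.5 identifiers (the submitters' processing notes name Bowtie 1.1.0). The authors deposited expected counts from RSEM 1.2.7, which are not normalised, together with TPM. Reads that multimap among similar gene models of the allotetraploid are divided by RSEM, so values of near-identical copies are uncertain. The deposited table of the whole series held the same expected counts and was not used.

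Members were taken from TPM by the rule given in the report. Members and lists were chosen with earlier results of these data known. Expected counts were rounded, filtered by filterByExpr (minimum count 10, minimum total 15), normalised by TMM and fitted in edgeR 4.0.16 (glmQLFit, glmQLFTest) with 12 groups, and p-values were adjusted by Benjamini-Hochberg over 44594 gene models. The fit used all 36 libraries with a shared estimate of the spread. Shoot and ShootApex libraries, which chose the members, therefore also enter the Root SE and p-values. The SE is the log2 fold change over the root of F. The study's methods call the replicates biological, without saying which plants they came from, and p-values measure the spread between these libraries. Alternatives in R 4.3.3 were limma 3.58.1 and DESeq2 1.42.0, as well as other scalings, filters, left-out libraries and a replicate block. The fit was also run on simulated counts with the same spread for all gene models and without the division by length. That run cannot show how the fit behaves on the libraries used here, which differ in both. Identifiers were printed for the 2 members of highest score, the 2 most abundant, the 2 highest and 2 lowest Root fold changes among called members (none), up to 2 adjacent pairs, the member of lowest score and the first gene model outside. Further members were named for their Root values or Root calls after these had been seen.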

Additional observations from a re-analysis of the deposited data

Results flagged for a closer look

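Nitab4.5_0000107g0120.1 stood out because its 3 Root libraries at ZT12 lay below all other Root libraries (log2 fold change -0.87 against the mean of ZT0, ZT6 and ZT18), while its ZT12 libraries in Shoot and ShootApex lay above all others of their tissue. The aerial values chose this gene model, and the difference between tissues was not tested.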

How the results depend on the processing

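Of the 139 members, 92 still passed the rule with means in place of medians. Without the 2 Shoot libraries of low mapping 89 gene models passed, 88 of them members, and without 1 replicate of every group 150 to 351 passed, 71 to 89 of them members; without replicate 3 the number was 351. In Root, DESeq2 called 2 members higher at ZT12 against the mean, 4 against ZT0 and 3 against ZT6, and limma on log2(TPM + 1) called 1 against ZT6, where edgeR called 0; the cause was not tested. Leaving out 1 library or replicate gave 0 to 1 calls of members against ZT0 and 0 in the other contrasts. The 1 call came without Root ZT6 replicate 1 (Nitab4.5_0006169g0040.1), where 4 of all gene models were called. The members called for any Root difference numbered 2, against 1 without TMM factors, 1 without the filter, 1 with the length measure as a term, 0 with the earlier edgeR fit, 0 with Root libraries alone, 0 without the 5 libraries listed with low mapping, 0 without the 4 of them other than Root ZT18 replicate 2, and 0 to 2 when a library or replicate was left out. Over all gene models such calls numbered 87, against 55 without TMM factors, 96 without the filter and 93 with the length measure. They numbered 56 with the earlier edgeR fit, 9 with Root libraries alone (120 members tested), 15 without the 5 libraries and 36 without the 4. With the replicate block 0 members were called for any Root difference (28 of all gene models), and the median log2 fold change against the mean was 0.42. With Root libraries alone that median was 0.41 over the 120 members tested, and 0.0036 over all gene models. Same-numbered libraries of different groups deviated together no more than differently numbered ones. Correlations ran from -0.767 to 0.688 (median -0.00116) and from -0.746 to 0.806 (median 0.00658), so the numbers were not taken as pairs. Some libraries in both sets did deviate together, and the main fit has no term for that. The median log2 fold change over left-out libraries and replicates was 0.32 to 0.60 against the mean, 0.25 to 0.60 against ZT0, 0.60 to 0.87 against ZT6 and -0.0146 to 0.27 against ZT18, where the sign turned without replicate 1 (-0.0146). The setting that keeps Root ZT18 replicate 2, the length term, the split at 1000 bases, the members kept and the members with enough counts were chosen after seeing the data.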
